A study of Mus musculus with 6 samples.

Results

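Transcripts of 36 genes for coagulation factors, their regulators and plasma protease inhibitors were followed in mouse liver. The genes were chosen by name from a list of the clotting and fibrinolytic systems and of abundant plasma inhibitors, and all 36 were found among 23021 rows with a usable gene symbol. F5, F13b and Serpinc1 were not analysed here. RNA-seq had been made from whole livers of C57BL/6 mice labelled male and 10 months old, on a chow diet, in 2 groups of 3 libraries. One group is labelled Cdkl3-/-, a knockout of the cyclin-dependent kinase-like gene Cdkl3 made in the liver per the series text, and the control group is labelled wild type. The labels do not name the Cre driver or say whether each library came from its own mouse, so each p-value speaks for the spread among these libraries alone. Values are FPKM, fragment counts scaled to transcript length and to library size.

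Blood clots when a cascade of serine proteases, most of them secreted by hepatocytes as inactive zymogens, ends in thrombin, which cuts fibrinogen into fibrin. Tissue factor starts the extrinsic branch, and factors XII, XI, IX and VIII make up the intrinsic branch. Protein C, protein S and serpins hold the cascade in check, plasmin dissolves fibrin, and wide-range inhibitors such as macroglobulins, fetuins and the inter-alpha-inhibitor family circulate beside them. Several members are made mainly by endothelium instead, among them Tfpi, Thbd, Plat and F8.

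The libraries differed in more than the label. By the worth of 1 read, recovered from the values, depth ran from 24530000 to 39550000 reads in the libraries labelled knockout and from 20460000 to 48610000 in those labelled wild type. Cdkl3 itself averaged 0.139 ± 0.060 FPKM in the libraries labelled knockout and 0.124 ± 0.039 FPKM in those labelled wild type (SD, n = 3 each), so its level did not separate the labels. Xist, the RNA of the inactive X chromosome, lay between 0.0125 and 0.0273 FPKM in the libraries labelled knockout and between 192 and 292 FPKM in those labelled wild type, and 4 of 4 Y-linked genes ran the other way. Sex and labelled genotype cannot be told apart in any comparison below. Mitochondrial transcripts held 69.5%, 70.1% and 63.2% of the summed FPKM in the libraries labelled knockout and 73.7%, 73.9% and 70.5% in those labelled wild type, with no overlap. The part of this share in the results was not tested beyond rescaling to the other transcripts, which left 17 members called higher and 3 lower. The same rescaling gave 1322 higher and 1792 lower among 5673 tested genes, against 1911 and 1157 as deposited. Kidney tubule markers summed to 5280 FPKM in knockout replicate 1, nearly all of it Kap, and to 4.37 and 5.89 FPKM in knockout replicates 2 and 3, against 0.433 to 1.47 FPKM in the libraries labelled wild type. The 5 of 7 listed stellate cell and fibroblast markers with a usable row summed to 21.3 to 32.2 FPKM in the libraries labelled knockout and 76.1 to 129.7 FPKM in those labelled wild type. In each library most of this sum was Dcn. Lrat, Reln and Dcn were called lower, against 20.4% of all tested genes, and Pdgfrb and Col1a1 were under 1 FPKM in each library. Col1a1 went the other way without overlap, at 0.0520 FPKM on average in the libraries labelled knockout and 0.0260 FPKM in those labelled wild type. The 6 of 8 listed hepatocyte markers with a usable row summed to 1906 to 2852 FPKM in the libraries labelled knockout. In those labelled wild type the sum was 1315 to 1679 FPKM, and in each library most of it was Alb and Apob. Alb, Ttr and Apoh were called higher, while Apob and Hnf4a were tested but did not pass. Apoa1 was near 0 in the libraries labelled wild type, with 2, 0 and 2 reads.

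The promoters of 2 groups of neighbouring genes are shown first, since the results turn on how these neighbours differ. Fgg, Fga and Fgb, for the 3 chains of fibrinogen, lie next to each other on chromosome 3, and F11 and Klkb1, for factor XI and plasma prekallikrein, lie next to each other on chromosome 8. Windows run from 250 bases before to 50 bases after the annotated start, 5′ to 3′ on the strand of the gene, from RefSeq (GRCm38.p6). They are chr3:83025903-83026202 on the plus strand for Fga, chr3:83049814-83050113 on the minus strand for Fgb, chr3:83007474-83007773 on the plus strand for Fgg, chr8:45261982-45262281 on the minus strand for F11 and chr8:45294786-45295085 on the minus strand for Klkb1. Capitals mark matches on either strand to an HNF1 string (GTTAAT), a C/EBP string (TTNNGNAA), a STAT string (TTCNNNGAA) and a FOXA string (TGTTTNC), and no matches of different strings overlapped.
Fga: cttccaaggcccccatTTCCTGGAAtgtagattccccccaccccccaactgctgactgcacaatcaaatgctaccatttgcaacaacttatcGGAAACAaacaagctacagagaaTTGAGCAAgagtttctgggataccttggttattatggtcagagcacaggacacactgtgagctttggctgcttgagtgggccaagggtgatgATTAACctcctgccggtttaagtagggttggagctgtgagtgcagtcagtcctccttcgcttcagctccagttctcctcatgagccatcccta
Fgb: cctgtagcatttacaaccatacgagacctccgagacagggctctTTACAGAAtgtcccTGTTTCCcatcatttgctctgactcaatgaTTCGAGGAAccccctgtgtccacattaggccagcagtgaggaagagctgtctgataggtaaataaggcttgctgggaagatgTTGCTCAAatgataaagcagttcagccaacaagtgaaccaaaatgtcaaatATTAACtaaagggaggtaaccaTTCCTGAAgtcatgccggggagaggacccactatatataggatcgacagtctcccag
Fgg: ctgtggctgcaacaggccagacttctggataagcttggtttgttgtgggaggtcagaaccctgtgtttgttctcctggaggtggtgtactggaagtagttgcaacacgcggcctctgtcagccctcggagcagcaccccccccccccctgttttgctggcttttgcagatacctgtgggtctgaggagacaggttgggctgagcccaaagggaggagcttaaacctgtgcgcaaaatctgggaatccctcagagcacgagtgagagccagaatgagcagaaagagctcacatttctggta
F11: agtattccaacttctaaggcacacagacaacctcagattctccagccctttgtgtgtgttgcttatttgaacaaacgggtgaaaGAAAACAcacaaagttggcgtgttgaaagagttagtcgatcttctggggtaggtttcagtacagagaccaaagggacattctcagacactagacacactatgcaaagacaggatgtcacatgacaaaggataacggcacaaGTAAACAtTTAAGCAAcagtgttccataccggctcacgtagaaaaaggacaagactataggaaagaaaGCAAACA
Klkb1: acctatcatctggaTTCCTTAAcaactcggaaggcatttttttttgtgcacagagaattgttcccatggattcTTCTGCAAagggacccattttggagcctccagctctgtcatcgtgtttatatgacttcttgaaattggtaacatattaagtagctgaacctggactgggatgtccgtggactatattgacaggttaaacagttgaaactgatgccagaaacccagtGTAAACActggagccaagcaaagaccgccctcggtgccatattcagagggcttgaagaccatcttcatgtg

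The Fga and Fgb windows each held the HNF1, STAT and FOXA strings at 1 place, and the C/EBP string once in Fga and 3 times in Fgb. The Fgg window held none of these strings, which says only that the letters are not in this window. F11 held the C/EBP string once and the FOXA string 3 times, and Klkb1 held them 2 times and 1 time. Of 32851 windows in the annotation, 7.1% held the HNF1 string, 40.68% the C/EBP string, 8.3% the STAT string and 20.49% the FOXA string. Among the 36 genes 30 had a window, and of their 32 windows 8, 17, 5 and 15 held these strings in the same order. GTTAAT is one arm of the HNF1 palindrome, and the whole palindrome was in 0 of the 32 and in 0.04% of all windows. An HNF4 string (CAAAGTNCA) was in 2 of the 32 and in 1.41% of all.

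Most liver-made members were higher in the libraries labelled knockout, and the size of the difference was uneven. Log2(FPKM + 1) was compared with limma, with Benjamini-Hochberg adjustment over 5673 genes at 1 FPKM or more in at least 3 libraries and a threshold of 0.05. Of the 36 members, 19 rose, 2 fell (Klkb1 and Tfpi), 5 were tested but did not pass (F3, F8, F9, Pros1 and Thbd), and 10 were under the filter. Over all tested genes, 33.7% were called higher and 20.4% lower. The median log2 difference of all tested genes was 0.12 as deposited and -0.16 with median centring, which gave 1443 higher and 1891 lower genes, against 1911 and 1157 as deposited. With it 18 members were called higher and 3 lower (Klkb1, Tfpi and F8), and Kng2 did not pass. Of the 19, F2, F10, Plg, Ahsg and Ambp stayed below 1 FPKM wherever the label was wild type and were tested only through the libraries labelled knockout. Among the 20 members at 1 FPKM or more in every library, 13 were called higher and 2 lower, against 23.3% and 23.8% of all genes that met the same condition, and their median log2 difference was 2.01, against -0.03. Without any filter 20 of 35 members were called higher and 1 lower, against 15.4% and 5.09% of all genes.

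**Figure D1:**
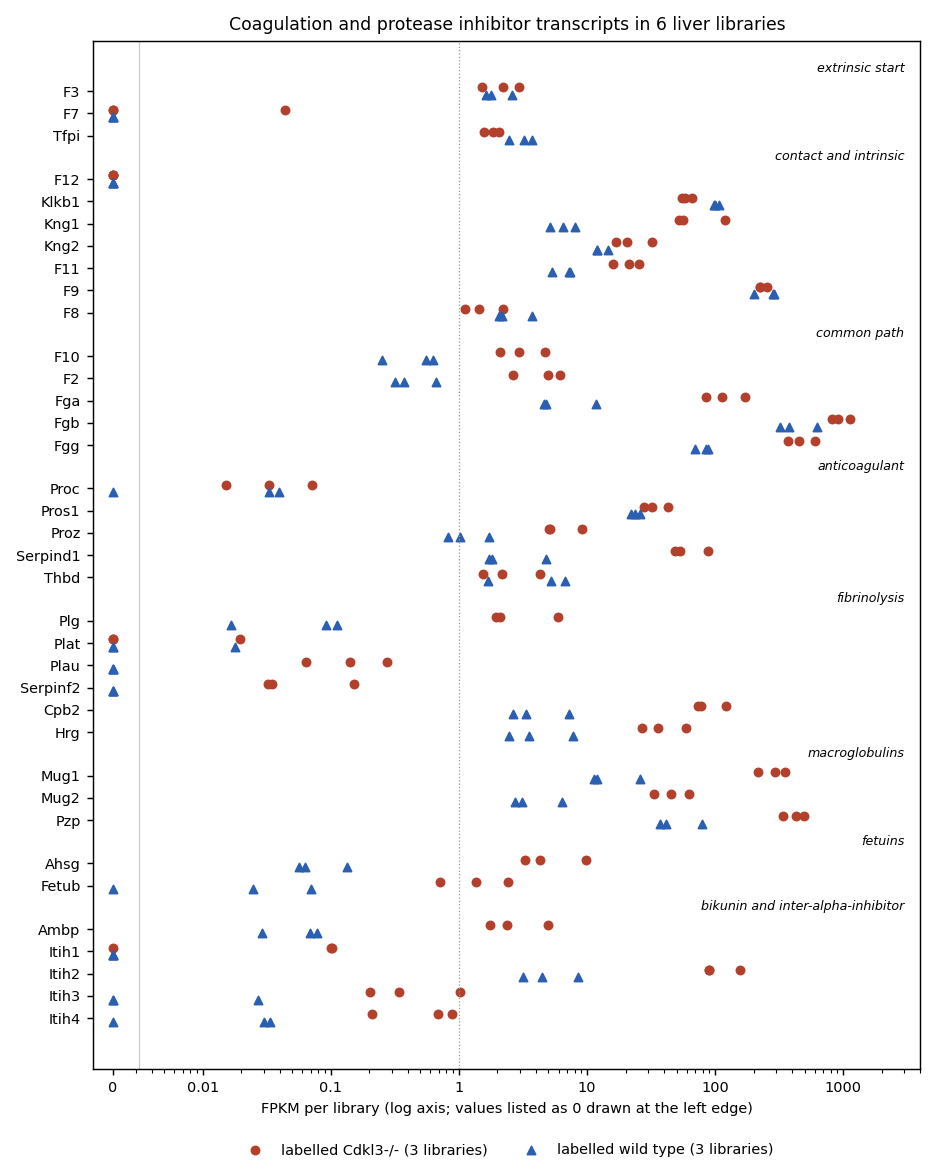
FPKM of the 36 genes in each library on a log axis, grouped by role, with circles for the 3 libraries labelled Cdkl3-/- and triangles for the 3 labelled wild type, and values listed as 0 at the left edge. All circles lie right of all triangles in 25 genes and left of them in 2, Klkb1 and Tfpi; the dotted line marks 1 FPKM.

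In the plot of values by library 27 of the 36 members had no overlap between groups, 25 with the libraries labelled knockout above and 2 with those labelled wild type above. Over all rows with a value above 0, the shares were 27.9% and 10.1%, and over tested genes 38.0% and 25.8%. An exact permutation test of 3 against 3 libraries cannot go below p = 0.1, which all 27 reached.

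In the start of the extrinsic branch nothing was higher. F3, tissue factor, measured 2.92, 2.20 and 1.53 FPKM in knockout replicates 1 to 3 and 2.60, 1.77 and 1.62 FPKM in wild type replicates 1 to 3. The groups overlapped, and the log2 difference of 0.09 (95% interval -0.39 to 0.58, limma adjusted p = 0.73) turned negative under each rescaling tried. F7, the protease that binds tissue factor, was listed at 0 in 5 of 6 libraries and held 2 reads in knockout replicate 1. Tfpi, the inhibitor of this complex, was at 2.04, 1.85 and 1.58 FPKM in the libraries labelled knockout and 2.46, 3.24 and 3.72 FPKM in those labelled wild type. It fell by 0.54 on the log2 scale (SE 0.17, limma adjusted p = 0.027). This call was lost without knockout replicate 2 or 3 or wild type replicate 2 or 3 (adjusted p up to 0.10), without a filter (adjusted p = 0.057) and after removal of the trend on GC content and transcript length (adjusted p = 0.15).

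F8 and Thbd had lower means in the libraries labelled knockout without passing the test, and Plat was near 0. F8, the cofactor of factor IXa, averaged 1.59 ± 0.560 FPKM in the libraries labelled knockout and 2.65 ± 0.923 FPKM in those labelled wild type (SD, n = 3 each), with a log2 difference of -0.49 (limma adjusted p = 0.11). F8 passed without knockout replicate 1 (adjusted p = 0.046) and with median centring, quantile normalization or scaling outside mitochondrial transcripts (adjusted p of 0.025, 0.023 and 0.034). Thbd, thrombomodulin, averaged 2.67 ± 1.42 and 4.55 ± 2.58 FPKM in the libraries labelled knockout and wild type (SD, n = 3 each), with a log2 difference of -0.53 (limma adjusted p = 0.32). It passed without wild type replicate 1, at 1.70 FPKM the lowest of its group (adjusted p = 0.038). Plat, tissue plasminogen activator, had 3 reads in knockout replicate 1, 4 in wild type replicate 1 and none elsewhere. Endothelial markers were mixed. Over the 7 of 8 listed markers with a usable row, the sum was 6.01 to 6.39 FPKM in the libraries labelled knockout and 10.2 to 11.8 FPKM in those labelled wild type, and all 3 that were tested (Lyve1, Cdh5 and Kdr) fell. The other 4 were under 1 FPKM in each library and were higher on average in the libraries labelled knockout. Clec4g averaged 0.545 FPKM in the libraries labelled knockout and 0.199 FPKM in those labelled wild type, and Stab2 and Flt1 had ratios of means of 1.77 and 1.44 with overlapping groups. Pecam1 averaged 0.0837 FPKM in the libraries labelled knockout and was listed at 0 in those labelled wild type. In bulk tissue fewer cells of a type and less RNA per cell cannot be told apart, and the part of the markers in these results was not tested.

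Of the 7 contact and intrinsic members, 3 were called higher, 1 lower and 2 not called, and F12 was under the filter. Over all tested genes the shares were 33.7% higher and 20.4% lower. Klkb1, plasma prekallikrein, was at 66.4, 57.9 and 55.5 FPKM in the libraries labelled knockout and 99.0, 97.8 and 108 FPKM in those labelled wild type, with no overlap. It fell by 0.75 on the log2 scale (SE 0.16, limma adjusted p = 0.0051), and by 0.74 after the GC and length trend was removed. F11, its neighbour (chr8:45241174-45262031 beside chr8:45266689-45294859, both on the minus strand, GRCm38, GENCODE M21), was at 21.3, 25.2 and 16.0 FPKM in the libraries labelled knockout and 7.30, 7.38 and 5.32 FPKM in those labelled wild type. Factor XI and prekallikrein are close relatives in sequence, and both circulate bound to kininogen. F11 rose with a log2 difference of 1.5 (SE 0.21, limma adjusted p = 0.00086). After the GC and length trend was removed, the F11 difference shrank to 0.86 (limma adjusted p = 0.0056). Within a library, Klkb1 had 2.29 to 3.48 times the FPKM of F11 in the libraries labelled knockout and 13.3 to 20.2 times in those labelled wild type. Of the 50-base stretches of Klkb1 transcripts, 42.7% also occur in the overlapping gene model Gm45753, so reads there may be assigned to either, while F11 shares none.

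The kininogens, carriers of bradykinin, both rose by the test but by very different amounts. Kng1 was at 55.7, 119 and 51.8 FPKM in the libraries labelled knockout and 8.04, 5.17 and 6.47 FPKM in those labelled wild type, a ratio of means of 11.5 (log2 difference 3.25, SE 0.32, limma adjusted p = 0.00022). Kng2 was at 20.6, 31.9 and 16.7 FPKM in the libraries labelled knockout and 12.0, 12.0 and 14.5 FPKM in those labelled wild type, a ratio of 1.80 (log2 difference 0.75, SE 0.24, limma adjusted p = 0.029). The Kng2 call was lost without knockout replicate 2 and without wild type replicate 1 or 2 (adjusted p up to 0.087), and after the GC and length trend was removed (log2 difference 0.12, adjusted p = 0.65) or with median centring (0.47, adjusted p = 0.12). Kng1 was above Kng2 in each library labelled knockout, at 2.71 to 3.73 times its FPKM, and below it in each library labelled wild type, at 0.430 to 0.669 times. Between 17.2% and 19.4% of the 50-base stretches of each occur in the other, which leaves single values uncertain.

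F9, factor IX, stood out as an abundant hepatocyte transcript that did not pass the test. It was at 224, 255 and 226 FPKM in the libraries labelled knockout and 286, 202 and 280 FPKM in those labelled wild type. The groups overlapped (log2 difference -0.11, 95% interval -0.57 to 0.35, limma adjusted p = 0.66), and the sign turned to 0.21 with the GC and length trend removed. F12, the first zymogen of contact activation, was listed at 0 in all 6 libraries. Its transcripts have the highest GC content of the 36 members, at 58.4%, and those of F9 the lowest, at 39.0%.

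The 5 members of the common path were called higher, against 33.7% of all tested genes, and F2 and F10 among them were tested only through the libraries labelled knockout. The fibrinogen chains differed by unequal amounts. Fga was at 85.3, 171 and 113 FPKM in the libraries labelled knockout and 11.7, 4.61 and 4.81 FPKM in those labelled wild type. The ratio of means was 17.5 and the log2 difference 4.0 (SE 0.37, limma adjusted p = 0.00018). Fgg was at 370, 600.1 and 451 FPKM in the libraries labelled knockout and 85.1, 87.7 and 69.9 FPKM in those labelled wild type, with a ratio of means of 5.85 and a log2 difference of 2.51 (SE 0.22, limma adjusted p = 0.00014). Fgb was at 820.1, 1131 and 909 FPKM in the libraries labelled knockout and 621, 323 and 378 FPKM in those labelled wild type, with a ratio of means of 2.16 and a log2 difference of 1.16 (SE 0.28, limma adjusted p = 0.0091). In none of the 3 did the groups overlap. The Fgb call was lost with quantile normalization and with scaling to FPKM outside mitochondrial transcripts.

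The makeup of the fibrinogen transcripts differed accordingly. Of the summed FPKM of the 3 chains, Fga held 6.69% to 8.98% in the libraries labelled knockout and 1.06% to 1.63% in those labelled wild type. Fgg held 29.0% to 31.6% in the libraries labelled knockout and 11.9% to 21.1% in those labelled wild type, and Fgb held 59.5% to 64.3% and 77.8% to 86.5% in the libraries labelled knockout and wild type. None of the 3 shares overlapped between groups (exact permutation p = 0.1 for each, the smallest possible). Fibrinogen is assembled from equal numbers of the 3 chains, and FPKM is already per length but not adjusted for base composition. Transcripts of Fga have 49.3% GC, those of Fgb 44.1% and those of Fgg 44.7%. With the GC and length trend removed, the log2 differences were 3.29 for Fga, 2.06 for Fgg and 0.99 for Fgb, each still called higher. The shares were not computed with the trend removed.

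F2, prothrombin, averaged 4.58 ± 1.76 FPKM in the libraries labelled knockout and 0.452 ± 0.186 FPKM in those labelled wild type (SD, n = 3 each; log2 difference 1.90, limma adjusted p = 0.00067). F10, factor X, averaged 3.24 ± 1.32 and 0.477 ± 0.200 FPKM in the libraries labelled knockout and wild type (SD, n = 3 each; log2 difference 1.49, limma adjusted p = 0.0014). Its difference shrank to 0.60 with the GC and length trend removed (adjusted p = 0.020). F7, F10 and Proz are neighbours on chromosome 8 (chr8:13026034-13035809, chr8:13037308-13056676 and chr8:13060914-13076026, plus strand), and F10 and Proz had ratios of means of 6.80 and 5.44 while F7 was at or near 0 throughout.

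**Figure D2:**
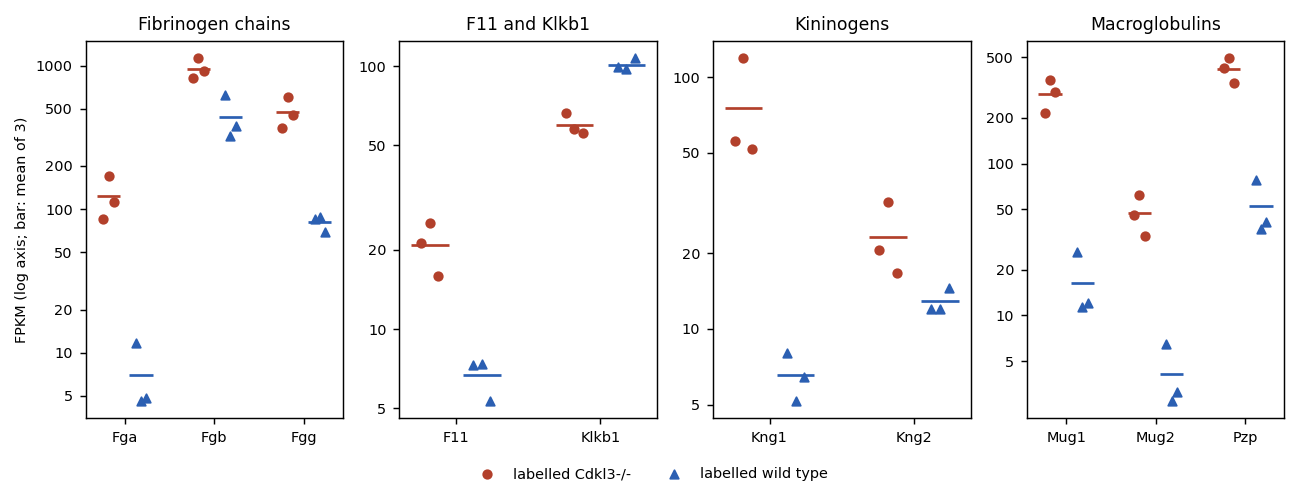
FPKM per library on log axes for the fibrinogen chains, F11 and Klkb1, the kininogens and the macroglobulins, with circles for the libraries labelled Cdkl3-/-, triangles for those labelled wild type and a bar at the mean of 3. Klkb1 is the single gene here with the libraries labelled Cdkl3-/- below those labelled wild type, at 55.5 to 66.4 against 97.8 to 108 FPKM.

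Among the natural anticoagulants, Serpind1, heparin cofactor II, showed the largest rise. It was at 53.5, 88.4 and 48.8 FPKM in the libraries labelled knockout and 4.76, 1.81 and 1.72 FPKM in those labelled wild type, a ratio of means of 23.0 (log2 difference 4.14, SE 0.34, limma adjusted p = 0.00012). Without wild type replicate 1, which was highest of its group, the ratio was 36. Proz, a vitamin K dependent cofactor that helps block factor Xa, was at 5.06, 9.06 and 5.17 FPKM in the libraries labelled knockout and 1.71, 0.816 and 1.022 FPKM in those labelled wild type (log2 difference 1.75, limma adjusted p = 0.00088). Pros1, protein S, was at 32.3, 42.6 and 27.8 FPKM in the libraries labelled knockout and 22.2, 25.8 and 23.6 FPKM in those labelled wild type. The Pros1 groups did not overlap, but the log2 difference of 0.48 did not pass (95% interval 0.04 to 0.93, limma adjusted p = 0.064), and it passed without knockout replicate 3 (adjusted p = 0.046). Proc, protein C, had 2, 7 and 1 reads in the libraries labelled knockout and 0, 4 and 2 in those labelled wild type, too few for a comparison. Of the 7 vitamin K dependent members, F2, F10 and Proz rose, against 33.7% of all tested genes, with F2 and F10 tested only through the libraries labelled knockout. F9 and Pros1 did not pass, and F7 and Proc were under the filter.

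Of the 6 fibrinolytic members, Cpb2, Hrg and Plg were tested and called higher, against 33.7% of all tested genes. Plg was tested only through the libraries labelled knockout, and the other 3 members were under the filter. Cpb2 encodes the carboxypeptidase that slows plasmin formation on fibrin. It was at 77.3, 121 and 73.2 FPKM in the libraries labelled knockout and 7.17, 3.36 and 2.64 FPKM in those labelled wild type, a ratio of means of 20.6 (log2 difference 4.14, SE 0.33, limma adjusted p = 0.00011). Hrg, histidine-rich glycoprotein, which binds plasminogen and heparin, averaged 40.7 ± 16.8 FPKM in the libraries labelled knockout and 4.60 ± 2.83 FPKM in those labelled wild type (SD, n = 3 each; log2 difference 2.94, limma adjusted p = 0.00080), a ratio of 8.85 that became 13.6 without wild type replicate 1. Plg, plasminogen, was at 2.08, 5.97 and 1.94 FPKM in the libraries labelled knockout and 0.112, 0.0166 and 0.0922 FPKM in those labelled wild type, where it rested on 15, 3 and 7 reads. Its log2 difference was 1.89 (SE 0.31, limma adjusted p = 0.0018), and the ratio of means of 45.2 was 27.2 without knockout replicate 2. Of the 50-base stretches of Plg 10.2% also occur in the overlapping Slc22a3.

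Plau and Serpinf2 were near 0. Plau, urokinase, had 16, 6 and 9 reads in knockout replicates 1 to 3 and none in the libraries labelled wild type. It passed only with a pseudocount of 0.1 and no filter (limma adjusted p = 0.034). Kidney tubule, which can also make urokinase, had its markers in knockout replicate 1, the highest for Plau, and their part was not tested. Serpinf2, the plasmin inhibitor alpha-2-antiplasmin, had 2, 14 and 2 reads in the libraries labelled knockout and was listed at 0 in those labelled wild type, and it did not pass (limma adjusted p = 0.17 without a filter).

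The macroglobulins, which trap proteases of many classes, were tested in 3 of 3 cases and called higher, against 33.7% of all tested genes. Mug1, murinoglobulin 1, was at 217, 354 and 294 FPKM in the libraries labelled knockout and 26, 11.4 and 12.0 FPKM in those labelled wild type, a ratio of means of 17.5 (log2 difference 4.12, SE 0.33, limma adjusted p = 0.00011). Mug2 averaged 47.1 ± 14.4 FPKM in the libraries labelled knockout and 4.09 ± 2.04 FPKM in those labelled wild type (SD, n = 3 each; log2 difference 3.26, limma adjusted p = 0.00021). Pzp, the broad alpha-macroglobulin of mouse plasma, was at 429, 496 and 340 FPKM in the libraries labelled knockout and 78.4, 37.2 and 41.4 FPKM in those labelled wild type (log2 difference 3.05, limma adjusted p = 0.00022). Pzp had 1.16 to 1.98 times the FPKM of Mug1 in the libraries labelled knockout and 3.02 to 3.44 times in those labelled wild type. Of the 50-base stretches of Mug2 50.5% occur in other genes, chiefly the pseudogene Mug-ps1 and Mug1, and of those of Mug1 26.5%, so the split between them is uncertain.

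Ahsg and Fetub, the fetuins, were low in these tables. Ahsg, a carrier of calcium phosphate in plasma, was at 4.32, 9.91 and 3.27 FPKM in the libraries labelled knockout and 0.0632, 0.0562 and 0.133 FPKM in those labelled wild type, where it rested on 5, 6 and 6 reads. Its log2 difference was 2.54 (SE 0.32, limma adjusted p = 0.00053), which understates the ratio of means of 69.2, or 45.1 without knockout replicate 2. Fetub had 34, 189 and 71 reads in the libraries labelled knockout and 5, 0 and 1 in those labelled wild type. It was under the filter, and in the fit without a filter it rose (log2 difference 1.22, limma adjusted p = 0.019), with a ratio of means of 47.0 that was 120.3 without wild type replicate 1. Ahsg, Fetub, Hrg, Kng2 and Kng1 follow each other on chromosome 16 between positions 22891277 and 23082078 (GRCm38), and their ratios of means ran from 1.80 for Kng2 to 69.2 for Ahsg.

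Of the 5 members of the bikunin and inter-alpha-inhibitor group, Itih2 and Ambp were tested and called higher, against 33.7% of all tested genes. Ambp was tested only through the libraries labelled knockout. Itih2, a heavy chain that is linked to bikunin and stabilises hyaluronan, was at 89.2, 157 and 89.5 FPKM in the libraries labelled knockout and 8.48, 3.14 and 4.44 FPKM in those labelled wild type. Its ratio of means was 20.9 and its log2 difference of 4.19 (SE 0.34, limma adjusted p = 0.00012) the largest of the 26 tested members on this scale. With a pseudocount of 0.1 its 4.43 was below the 4.87 of Ahsg and the 4.58 of Serpind1, and Ahsg, Ambp, Plg and Serpind1 had larger ratios of means. Ambp, the precursor of bikunin and alpha-1-microglobulin, was at 1.76, 4.93 and 2.39 FPKM in the libraries labelled knockout and had 4, 2 and 2 reads in those labelled wild type (log2 difference 1.85, limma adjusted p = 0.00084). Itih4, Itih3 and Itih1, neighbours on chromosome 14, were under the filter. Itih4 had 19, 128 and 68 reads in the libraries labelled knockout and 4, 6 and 0 in those labelled wild type (limma adjusted p = 0.044 without a filter). Itih3 had 18, 146 and 33 reads in the libraries labelled knockout and 0, 0 and 2 in those labelled wild type (adjusted p = 0.090). With a pseudocount of 0.1 and no filter Itih3 passed (log2 difference 2.29, limma adjusted p = 0.016). Itih1 had 0, 13 and 9 reads in the libraries labelled knockout and none in those labelled wild type (adjusted p = 0.16).

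**Figure D3:**
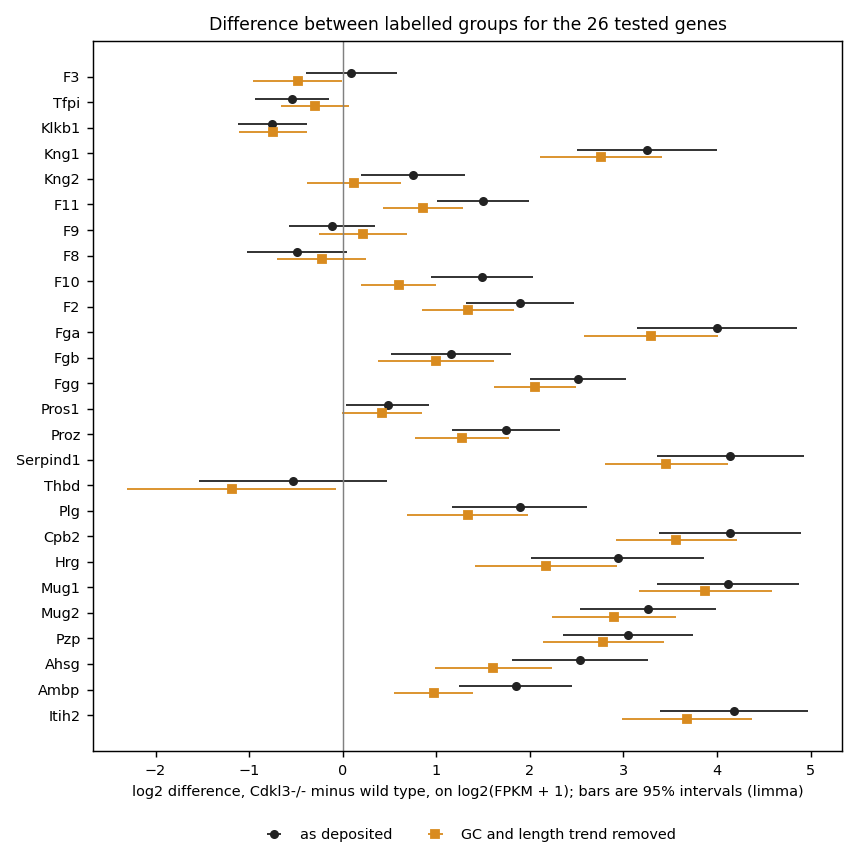
Log2 difference, Cdkl3-/- minus wild type, for the 26 tested members with 95% limma intervals, as deposited (circles) and once the trend with GC content and transcript length was taken out (squares). The differences run from -0.75 for Klkb1 to 4.19 for Itih2, and with the trend removed they shrink for most members and cross 0 for F3 and F9.

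Base composition moved with both the levels and the differences. Across the 36 members, which share the 6 libraries, Spearman's rho of the mean log2(FPKM + 1) with transcript GC content was -0.646 in the libraries labelled knockout and -0.79 in those labelled wild type (Pearson's r -0.608 and -0.713), and over 5539 tested genes rho was -0.175 and -0.374. The 36 include 10 members under the filter, while the 5539 genes all passed it. These sets are unlike, so the values do not show that members depend more on GC content than other genes. The 14 members with transcripts of 50% GC or more had a median of 1.05 FPKM in the libraries labelled knockout and 0.0281 FPKM in those labelled wild type. They include F2, F7, F10, F12, Proc, Ahsg, Ambp and Serpinf2. The 8 members under 45% GC, F9 and Fgb among them, had medians of 75.3 and 52.4 FPKM in the libraries labelled knockout and wild type.

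Within each class of base composition the members could be set beside genes alike in GC. Under 45% GC, 3 of 8 tested members were called higher and 2 lower, against 20.5% and 27.7% of all genes of that class. From 45% to under 50% GC, 11 of 12 were called higher and 0 lower, against 42.7% and 14.3%. Plg among the 11 was tested only through the libraries labelled knockout. At 50% GC or more, 5 of 6 tested members were called higher and 0 lower, against 53.0% and 11.6%, and Ahsg, Ambp, F2 and F10 among the 5 were tested only through the libraries labelled knockout. With the trend on base composition and length taken out, 18 members were called higher and 1, Klkb1, lower, against 25.4% and 27.3% of all genes, and the median log2 difference of the 26 tested members was 1.30, against 1.87 as deposited.

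**Figure D4:**
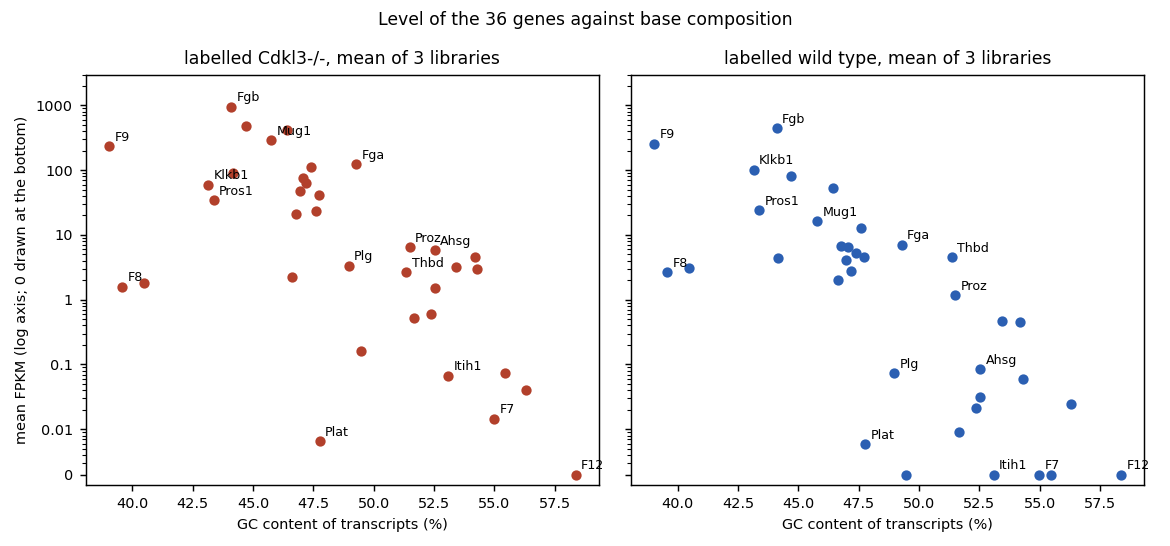
Mean FPKM of the 36 members on a log axis against the GC content of their transcripts, in the 3 libraries labelled Cdkl3-/- (left) and the 3 labelled wild type (right). Levels are mostly lower at higher GC content in both panels. F9, at 39.0% GC, averages 235 FPKM in the libraries labelled Cdkl3-/- and 256 FPKM in those labelled wild type, and F12, at 58.4%, is listed at 0.

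Libraries of a group differed in a shared way. Knockout replicate 2 was highest of its group in 26 of the 32 members with a value above 0 in all 3 libraries, and wild type replicate 1 in 17 of 26. How often these libraries were highest over all genes was not counted, and the SDs below are not matched for expression level. The median SD of log2(FPKM + 1) was 0.427 for the tested members and 0.205 for all tested genes in the libraries labelled knockout, and 0.278 and 0.212 in those labelled wild type. Without knockout replicate 2, 18 members were called higher and 1 lower, against 1627 and 879 of 5673 genes over all.

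Other genes that act with these proteins were counted in the same way. Of 41 other genes of clotting, fibrinolysis and vitamin K use, 36 had a usable row and 14 were tested, of which 10 rose, 1 fell and 3 did not pass, against 33.7% higher and 20.4% lower over all tested genes. Asgr1, Cpn2 and Habp2 among the 10, with log2 differences of 2.17, 1.97 and 1.63, were tested only through the libraries labelled knockout. Serpina10, the inhibitor that works with protein Z, averaged 15.8 ± 5.41 FPKM in the libraries labelled knockout and 3.90 ± 1.48 FPKM in those labelled wild type (SD, n = 3 each; limma adjusted p = 0.0016). F2r, a thrombin receptor, averaged 17.8 ± 3.12 and 5.86 ± 0.596 FPKM in the libraries labelled knockout and wild type (limma adjusted p = 0.00051 in the fit across all genes). Apoh, a phospholipid-binding plasma protein, averaged 21.2 ± 12.3 FPKM in the libraries labelled knockout and 1.31 ± 0.801 FPKM in those labelled wild type (limma adjusted p = 0.00065). Vkorc1l1, a vitamin K epoxide reductase, averaged 6.19 ± 0.188 FPKM in the libraries labelled knockout and 2.58 ± 0.336 FPKM in those labelled wild type (limma adjusted p = 0.0011). Fgl2, a membrane prothrombinase, fell to 2.27 ± 0.221 FPKM in the libraries labelled knockout, against 8.74 ± 2.99 FPKM in those labelled wild type (limma adjusted p = 0.0013). Of 13 liver transcription factors 11 had a usable row and 4 were tested. Foxa1 and Onecut1 were called higher, against 33.7% of all tested genes, and Hnf4a and Foxa2 were not called. Foxa2 alone was called, as lower, once the GC and length trend was removed. Without a filter 3 of 10 were called higher and 0 lower, against 15.4% and 5.09% of all genes. These were Foxa3, Cebpa and Stat3, each under 1 FPKM in every library labelled wild type, and Foxa1 and Onecut1 did not pass in that fit.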

How the data were processed

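Total RNA of frozen liver was sequenced in 6 libraries, with HISAT2 and the GRCm39 genome named in the submitters' processing notes. No source used here names the counting tool or annotation. The 6 deposited tables give 1 FPKM value per row, made by the authors, per the file headers. In the table of knockout replicate 3 the header code differs from the sample title, and the sample record was used. Row identifiers and symbols named the same gene in 0 of 24927 rows. When transcripts were given the exon length that GENCODE M21 (GRCm38) lists for the symbol, 98.9% of 43463 values of at most 40 reads outside the chromosome 1 rows were whole reads within 0.15 read, and 36.1% in the 1787 chromosome 1 rows, so symbols were used and those rows, with 127 without a symbol, were left out. All 36 low values of the members were whole. Low counts limit members of a few reads, by counting error alone.

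Log2(FPKM + 1) was fitted with limma 3.58.1 (R 4.3.3, mean-variance trend, robust moderation) for 5673 genes, with labelled genotype as the only term, and checked on simulated data. Members under the filter of 1 FPKM in 3 libraries are given from the fit without a filter. The scale understates low genes. GC content and exon length (M21, 97.64% of tested genes) were used to remove each library's loess trend. Shared sequence was counted as identical 50-base stretches in M21 transcripts. Members, lists and tests were chosen with earlier results of these data known. The rule named all 36 members and up to 8 tested related genes with the smallest adjusted p. Alternatives were pseudocount, filter, threshold, moderation, scaling, trend removal, a replicate block and leaving out each library. Python 3.11.15, scipy 1.17.1 and matplotlib 3.10.9 were used.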

Additional observations from a re-analysis of the deposited data

How the results depend on the processing

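Members called higher numbered 17 to 20 under all alternatives except 10 FPKM in 3 libraries, where 13 of 16 tested were called, and no filter with a pseudocount of 0.1, with 22 of 35. Members called lower, 2 as reported, numbered 1 without a filter (also with a pseudocount of 0.1), at 10 FPKM, at adjusted p under 0.01 and with the GC and length trend removed (2 with the replicate block added, Klkb1 and Thbd), 0 with a log2 difference of at least 1, and 1 to 3 when single libraries were left out. Klkb1 was the member kept in each count of 1. Over all genes, those higher numbered 3171 of 20529 without a filter and 3298 of 20529 (16.1%) without a filter at pseudocount 0.1. They numbered 468 of 1746 at 10 FPKM and 1102 of 5673 with a log2 difference of at least 1. Those lower numbered 559 at 10 FPKM, 656 at adjusted p under 0.01, 415 with a log2 difference of at least 1, 1891 with median centring, 1761 with quantile normalization and 1792 scaled to FPKM outside mitochondrial transcripts, the last chosen after seeing the data, as was the joint use of no filter and pseudocount 0.1.

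The log2 difference of F3 reversed to -0.19 with median centring, -0.26 with quantile normalization, -0.48 with the trend removed (with or without the replicate block), -0.15 outside mitochondrial transcripts and -0.0622 without knockout replicate 1, with a range of -0.0622 to 0.255 over single libraries left out. That of F9 reversed to 0.21 with the trend removed, also with the replicate block. The cause was not tested. Deviations of same-numbered libraries from their group means had r of -0.049, -0.096 and 0.181 across genes. Between differently numbered libraries r ran from -0.347 to 0.345. Deviations within a group are tied to each other by its mean, so these values cannot settle whether the numbers mark pairs. With the replicate block 18 members were called higher and 1 lower, and 1740 and 1031 genes over all; Kng2 (limma adjusted p = 0.055) and Tfpi (0.068) were the members no longer called. Few reads limit what can be said of F7, Proc, Plat, Itih1 and Serpinf2, which held at most 14 reads in any library. Why these counts were low was not tested.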
